A study of Mus musculus with 6 samples.

Results

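The transcription factor Nrf2 (gene Nfe2l2), its repressor Keap1 and 8 genes that Nrf2 is known to induce (Nqo1, Gclc, Gclm, Txnrd1, Srxn1, Slc7a11, Cbr3 and Akr1b8) were followed in visceral fat of obese mice with and without Cre-driven deletion of Hmox1. They were taken by symbol, as the probesets annotated with that symbol and no other. Each had 1 probeset, so the 10 genes are 10 of the 19938 genes named on the array. The arrays measured total RNA of perigonadal visceral white adipose tissue (viWAT), 3 for Hmox1f/f PdgfraCre mice (numbered 1 to 3) and 3 for Hmox1f/f mice (4 to 6). Each array held a pool of 2 male C57BL/6 J mice fed a high-fat diet for 8 weeks from week 6 of age.

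All 6 pools carried Hmox1 alleles with loxP sites around exon 2, and the control pools lacked Cre, so the presence of Cre and the deletion of Hmox1 cannot be told apart. Cre was driven by the promoter of Pdgfra, a receptor of adipose precursors (APs). Deletion was thus aimed at the APs and not at all cells of the fat, and its extent in each cell type was not measured on these arrays. The labels name both APs and viWAT as the source. Adipoq, which encodes adiponectin and marks mature adipocytes, lay between 12.74 and 13.10 (log2 intensity) on all 6 arrays, and the macrophage gene Adgre1 lay between 11.08 and 11.92, so that markers of cells other than APs were at high levels on every array. Values below are log2 of the deposited intensity, a scale on which a difference of 1 is a 2-fold change. Differences are Hmox1f/f PdgfraCre minus Hmox1f/f, given with their standard error (SE) from limma. The p-values measure the spread between these pools, which are few. In RNA of a whole tissue, fewer cells of a type and less RNA per cell cannot be told apart.

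Nrf2 is a basic leucine zipper protein that pairs with small Maf proteins on the antioxidant response element and switches on genes of glutathione and thioredoxin metabolism, quinone and carbonyl reduction and NADPH supply. In resting cells Keap1, an adaptor of the Cul3 ubiquitin ligase, holds Nrf2 and has it degraded. Electrophiles and oxidants modify cysteines of Keap1, Nrf2 escapes and its targets are induced. Control of Nrf2 is thus largely at the protein level, which arrays do not measure. Hmox1, which encodes the heme-degrading enzyme HO-1, is itself a target of Nrf2 and is also held down by Bach1.

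The antioxidant response element was looked up in RefSeq promoter windows of mouse build GRCm38.p6, which run from 250 bases before to 50 bases after an annotated start. Of the 10 genes, 9 had a window (11 windows, 3 of them of Txnrd1). The core of the element, TGACNNNGC on either strand, was present in 4 of the 11 windows. The share was 12.39% of all 32851 windows and 14.29% of the windows of genes tested. Counted by gene it was 4 of 9, against 17.0% of genes tested with a window. Those 4 windows are printed here because they hold the letters through which Nrf2 is known to act, with the matches in capitals. That of Nfe2l2 lies at chr2:75704614-75704913 (minus strand), that of Gclm at chr3:122245307-122245606, that of Txnrd1 at chr10:82858956-82859255 and that of Srxn1 at chr2:152105274-152105573 (all 3 plus strand).
Nfe2l2: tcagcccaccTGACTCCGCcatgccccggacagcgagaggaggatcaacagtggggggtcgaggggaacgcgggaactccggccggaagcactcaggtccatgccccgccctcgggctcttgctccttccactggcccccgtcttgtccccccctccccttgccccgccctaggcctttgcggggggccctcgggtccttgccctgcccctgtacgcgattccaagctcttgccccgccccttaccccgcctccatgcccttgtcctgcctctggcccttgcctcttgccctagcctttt
Gclm: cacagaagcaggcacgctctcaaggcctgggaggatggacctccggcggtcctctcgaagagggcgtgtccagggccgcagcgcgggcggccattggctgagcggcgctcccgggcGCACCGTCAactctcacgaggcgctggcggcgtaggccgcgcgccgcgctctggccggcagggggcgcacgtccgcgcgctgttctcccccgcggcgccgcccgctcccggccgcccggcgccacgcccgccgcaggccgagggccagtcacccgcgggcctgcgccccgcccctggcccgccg
Txnrd1: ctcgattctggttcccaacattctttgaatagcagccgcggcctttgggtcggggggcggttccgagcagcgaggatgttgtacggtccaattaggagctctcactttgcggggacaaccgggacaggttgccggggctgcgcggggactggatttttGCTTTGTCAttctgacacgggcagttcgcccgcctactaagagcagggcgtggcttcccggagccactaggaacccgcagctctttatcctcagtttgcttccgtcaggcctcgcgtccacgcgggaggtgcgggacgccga
Srxn1: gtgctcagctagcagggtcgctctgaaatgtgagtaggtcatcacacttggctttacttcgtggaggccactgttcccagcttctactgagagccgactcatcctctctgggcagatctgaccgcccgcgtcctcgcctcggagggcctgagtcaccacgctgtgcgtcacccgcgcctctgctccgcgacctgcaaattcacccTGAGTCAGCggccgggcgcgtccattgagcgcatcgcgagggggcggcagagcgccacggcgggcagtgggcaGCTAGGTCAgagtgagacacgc

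The match began 240 bases before the start in Nfe2l2, where it read TGACTCCGC on the strand of the gene. In Gclm it read GCACCGTCA and began 134 bases before the start, on the opposite strand. In Txnrd1 it read GCTTTGTCA, 92 bases before the start of the second of 3 windows, also on the opposite strand. In Srxn1 the core read GCTAGGTCA and lay 29 bases after the start. Srxn1 held a further stretch, TGAGTCAGC, 45 bases before its start. It matches TGANTCAGC, the letters bound by Nrf2-type factors with small Maf partners. These letters stood in 1 of the 11 windows, in 1.19% of all windows and in 1.09% of windows of genes tested. The second motif was searched after the windows had been read with the first, and 149 windows of all genes held a stretch that matches both. The windows of Keap1, Nqo1, Slc7a11, Cbr3 and Akr1b8 held no match to either, which says only that these letters are not in the 300 bases searched. A match describes letters and is not a measured binding site.

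Hmox1 itself was 11.25, 11.36 and 10.74 on Hmox1f/f PdgfraCre arrays 1, 2 and 3, and 11.90, 11.63 and 12.32 on Hmox1f/f arrays 4, 5 and 6. All PdgfraCre arrays were below all controls, by -0.83 ± 0.22 (limma adjusted p = 0.20). Whether its probeset covers the deleted part of the gene was not analysed here. By limma, not 1 of the 11024 genes tested across the arrays had an adjusted p under 0.05 (0 genes), while 1944 were under 0.05 before adjustment. These were 1523 lower and 421 higher with Cre, or 1000 lower and 746 higher after a further quantile normalization. Each difference described below is therefore one that missed the adjusted threshold. Hmox1f/f 6 and PdgfraCre 1 stood apart from the other arrays. Over all genes Hmox1f/f 6 correlated with the others at r = 0.9603 to 0.983 and PdgfraCre 1 at 0.9603 to 0.9833, whereas the 4 other arrays correlated among themselves at 0.9878 to 0.9964.

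Of the 10 genes, 9 were lower in Hmox1f/f PdgfraCre viWAT and Slc7a11 was not. The groups did not overlap in 7 of them (Nfe2l2, Gclc, Gclm, Txnrd1, Srxn1, Cbr3 and Akr1b8), against 21.2% of all genes tested that were lower without overlap. An unadjusted p under 0.05 was reached by 6 (the same genes without Nfe2l2), against 13.8% of genes tested that were lower at that level, and 0 of the 10 were higher at it, against 3.82%. Slc7a11 did not reach the level set for testing, a log2 intensity above 7 on at least 3 arrays, and is counted here with its values from the fit of all 19938 genes. Nqo1 passed on exactly 3 arrays. Cbr3 passed through the controls, all 3 of which were above 7 against 1 PdgfraCre array, so it is a gene that could pass by being high in 1 group. Without any filter on level 49.4% of genes were lower with Cre, 13% were lower without overlap and 7.5% were lower at an unadjusted p under 0.05. Over all 10 genes the median difference in that fit was -0.43.

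These counts were also taken without the arrays that stood apart. Without Hmox1f/f 6, 9 of the 10 genes were lower, 7 without overlap (against 25.5% of genes tested) and 4 at an unadjusted p under 0.05 (against 8.18%). Without PdgfraCre 1 all 10 were lower, 7 without overlap (24.5%) and 7 at that level (8.84%). Without both all 10 were lower, 7 without overlap (29.4%) and 5 at that level (4.12%). Akr1b8 was then at -0.92, Srxn1 at -0.49, Gclm at -0.39, Gclc at -0.37 and Txnrd1 at -0.33, and the values of the other genes without both arrays stand with each gene below.

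**Figure D1:**
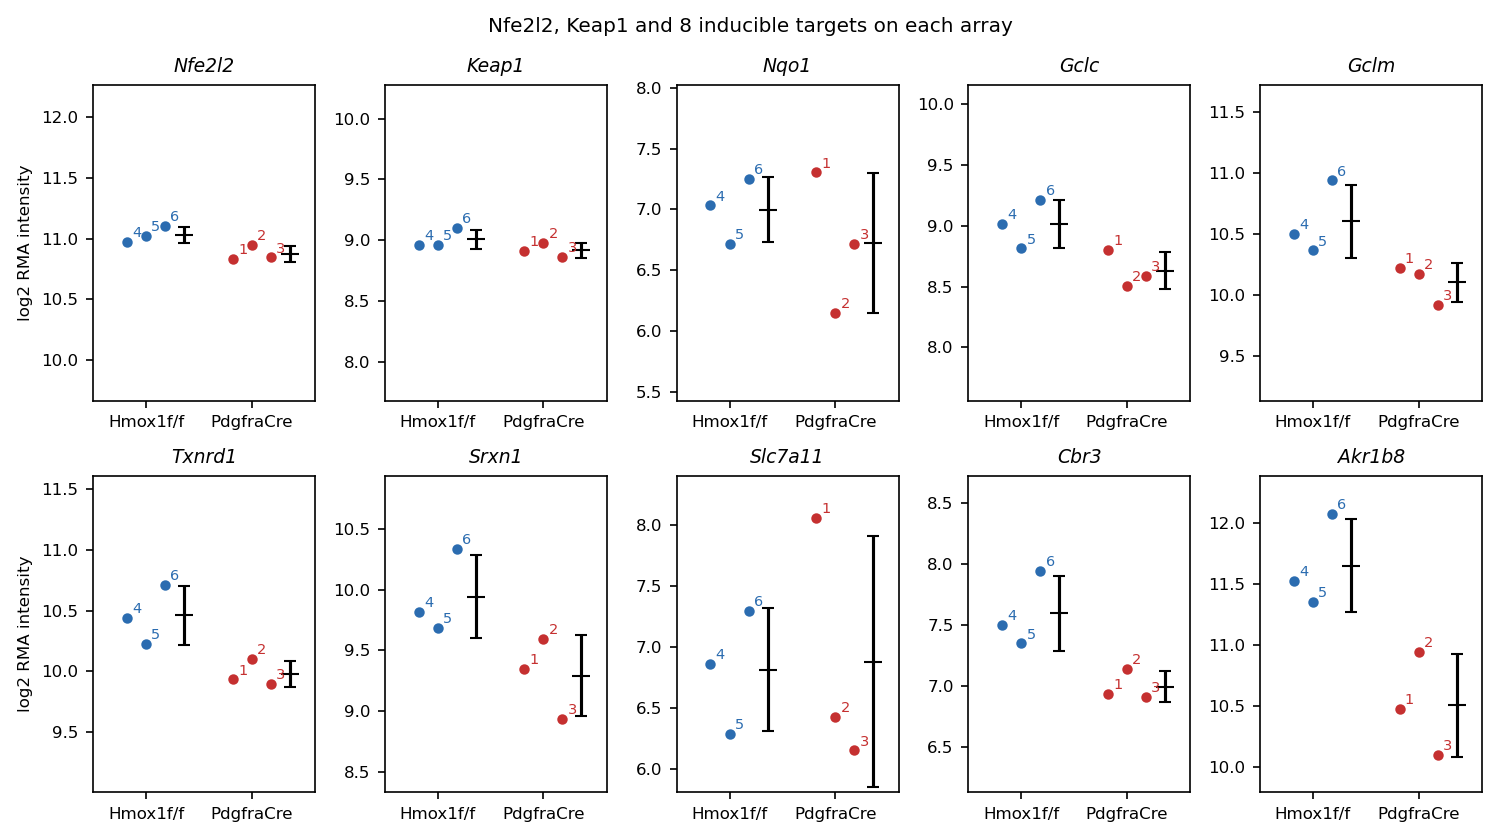
Log2 intensity (vertical axis, each panel spanning the same number of log2 units) of the 10 genes on each array, with Hmox1f/f arrays 4 to 6 in blue, Hmox1f/f PdgfraCre arrays 1 to 3 (written PdgfraCre) in red, and the mean ± SD of each group of 3 in black. Akr1b8 shows the widest separation, and Nqo1 and Slc7a11 have array 1 of the PdgfraCre group at the top.

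Nfe2l2 (probeset 10483809) encodes Nrf2 and was 10.83, 10.95 and 10.85 on PdgfraCre arrays 1 to 3 and 10.97, 11.02 and 11.10 on control arrays 4 to 6. Every PdgfraCre array was below every control, but the gap between PdgfraCre 2 and Hmox1f/f 4 was narrow. The difference was -0.16 ± 0.08 (95% interval -0.34 to 0.02, limma adjusted p = 0.319), a level 1.12-fold lower. Without PdgfraCre 1 and Hmox1f/f 6, the arrays highest in the summed markers of the epididymis (described below), it was -0.10. A difference as low or lower was found in 24.1% of genes tested.

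Keap1 (probeset 10591482), the repressor, was 8.91, 8.98 and 8.86 with Cre and 8.96, 8.96 and 9.10 in the controls. Array 2 of the PdgfraCre group lay above 2 of the controls, so the groups overlapped. The difference of -0.09 ± 0.08 (95% interval -0.27 to 0.09, limma adjusted p = 0.544) spans both a lower and a higher level. It was -0.04 without Hmox1f/f 6, -0.04 without both Hmox1f/f 6 and PdgfraCre 1, and -0.05 with arrays weighted by their quality (arrayWeights). Both regulators were among the steadier genes between pools. The SD within groups was 0.06 for Nfe2l2 and 0.07 for Keap1, and only 13.6% and 16.6% of genes tested had a smaller one.

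The supply of glutathione, the main small thiol of the cell, was represented by 3 genes. Slc7a11 (probeset 10498024) encodes the cystine carrier of the xCT exchanger and was 8.06, 6.43 and 6.15 with Cre and 6.86, 6.29 and 7.30 in the controls. PdgfraCre 1 was the highest array and PdgfraCre 3 the lowest, so no difference could be resolved. The fit of all 19938 genes gave 0.07 ± 0.53 (95% interval -1.21 to 1.34, limma adjusted p = 0.974), and without PdgfraCre 1 the value was -0.53. It turned with other settings too, to -0.20 without Hmox1f/f 5 and to -0.28 without both PdgfraCre 1 and Hmox1f/f 6, and was 0.60 with arrayWeights.

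Gclc and Gclm encode the catalytic and the modifier subunit of glutamate-cysteine ligase, the rate-limiting enzyme of glutathione synthesis. Gclc (probeset 10587266) was 8.80, 8.51 and 8.59 with Cre and 9.01, 8.81 and 9.21 in the controls. The groups just missed each other, with PdgfraCre 1 at nearly the level of Hmox1f/f 5. The difference was -0.38 ± 0.13 (95% interval -0.68 to -0.09, limma adjusted p = 0.218). Gclm (probeset 10495763) was 10.22, 10.17 and 9.92 with Cre and 10.50, 10.37 and 10.94 in the controls. Again all PdgfraCre arrays were below all controls, and Hmox1f/f 6 stood above the other controls. The difference was -0.50 ± 0.16 (95% interval -0.88 to -0.12, limma adjusted p = 0.215). It was -0.33 without Hmox1f/f 6 and also with arrayWeights.

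Of the thioredoxin branch, Txnrd1 encodes the cytosolic thioredoxin reductase and Srxn1 encodes sulfiredoxin, which restores overoxidised peroxiredoxins. Txnrd1 (probeset 10365260) was 9.93, 10.10 and 9.90 with Cre and 10.44, 10.23 and 10.71 in the controls. The PdgfraCre arrays were close together and all below the controls, which were spread more widely. The difference was -0.48 ± 0.13 (95% interval -0.79 to -0.17, limma adjusted p = 0.201), and 2.46% of genes tested had a difference as low or lower. Srxn1 (probeset 10477061) was 9.35, 9.59 and 8.93 with Cre and 9.81, 9.68 and 10.33 in the controls. PdgfraCre 2 reached almost the level of Hmox1f/f 5, without overlap. The difference was -0.65 ± 0.22 (95% interval -1.16 to -0.15, limma adjusted p = 0.218), a level 1.57-fold lower. With arrayWeights it was -0.43.

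Nqo1, Cbr3 and Akr1b8 encode reductases of quinones, carbonyls and aldehydes. Nqo1 (probeset 10581538), the classical quinone reductase of the Nrf2 response, was 7.30, 6.15 and 6.71 with Cre and 7.03, 6.71 and 7.25 in the controls. Its highest and its lowest value were both on PdgfraCre arrays. The difference was -0.28 ± 0.28 (95% interval -0.94 to 0.39, limma adjusted p = 0.61). It was -0.57 without PdgfraCre 1, 0.01 without PdgfraCre 2 and -0.44 without both PdgfraCre 1 and Hmox1f/f 6. It was -0.42 without Hmox1f/f 5, -0.15 without Hmox1f/f 6 and -0.10 with arrayWeights. Among the 7 inducible targets tested, Nqo1 was the only one whose direction turned when 1 array was left out.

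Cbr3 (probeset 10436978), a carbonyl reductase, was 6.93, 7.14 and 6.91 with Cre and 7.50, 7.35 and 7.94 in the controls. The groups were clearly apart, and Hmox1f/f 6 was again the highest. The difference was -0.60 ± 0.16 (95% interval -0.98 to -0.24, limma adjusted p = 0.20). Without PdgfraCre 1 and Hmox1f/f 6 it was -0.40. Akr1b8 (probeset 10537146), an aldo-keto reductase, was 10.48, 10.95 and 10.10 with Cre and 11.53, 11.35 and 12.08 in the controls. It had the widest separation among the 10 genes, with a gap of 0.41 between PdgfraCre 2 and Hmox1f/f 5. The difference was -1.15 ± 0.25 (95% interval -1.74 to -0.55, limma adjusted p = 0.20), a level 2.21-fold lower. A 2-fold lower level at any p was found in 0.254% of genes tested (28 genes), and 96 genes had a p at least as small as that of Akr1b8.

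The 8 inducible targets also shared an order of arrays within the controls, but not within the PdgfraCre group. In the controls the order of arrays was 6, then 4, then 5 in 8 of 8 targets, an order shared by 18.3% of genes tested. That order was also found in 58.3% of 24 macrophage markers and 44.2% of 43 other known targets, Hmox1 included (both listed below). Array 6, which stood apart from the others over all genes, was the highest control in all 10 genes, Nfe2l2 and Keap1 included, as in 30.9% of genes tested. The same held for 62.5% of the macrophage markers and 65.1% of the other targets. In the PdgfraCre group the order was 2, then 1, then 3 in Keap1, Txnrd1, Srxn1, Cbr3 and Akr1b8, and in 20.6% of genes tested. Among the macrophage markers 75% had this PdgfraCre order, and among the other targets 27.9%. Gclm instead was highest on PdgfraCre 1, as were Gclc, Nqo1 and Slc7a11. These orders were noticed in the data and are a description. The targets were among the more variable genes within groups. The SD within groups was 0.45 for Nqo1, 0.40 for Akr1b8 and 0.34 for Srxn1, against a median of 0.12 over all genes tested, and 0.18 for Gclc, the smallest among the 7 targets tested.

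**Figure D2:**
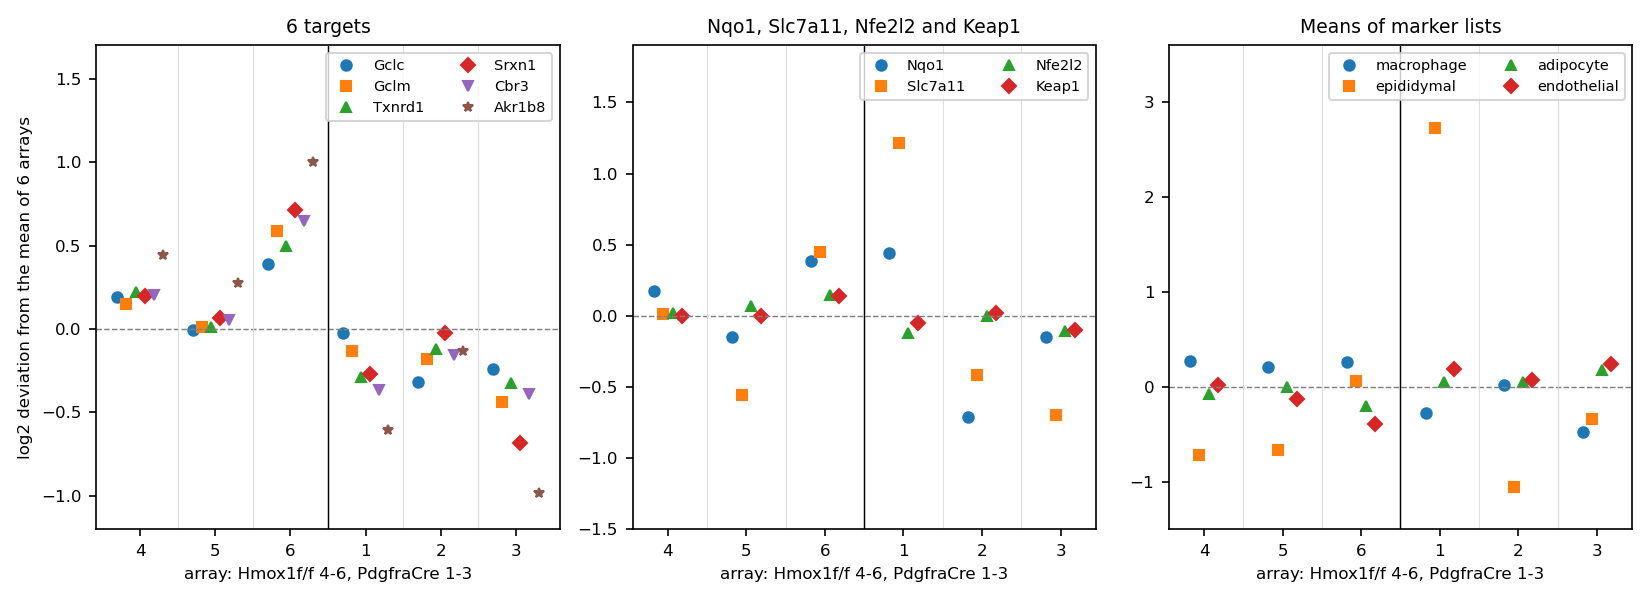
Deviation of each array from the mean of the 6 arrays (log2) for 6 targets (left), for Nqo1, Slc7a11, Nfe2l2 and Keap1 (middle) and for the means of 4 marker lists (right), with Hmox1f/f arrays 4 to 6 before Hmox1f/f PdgfraCre arrays 1 to 3 (written PdgfraCre) and a different vertical scale in each panel. The 6 targets are highest on array 6, where Akr1b8 is 1.00 above its mean. The macrophage mean is nearly level over the 3 controls, but a mean of 24 genes can vary less than single genes.

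Markers of other cells differed between the groups along with these genes. All 24 macrophage markers were lower with Cre (20 with an unadjusted p under 0.05 and 0 past the adjusted threshold in limma, median -0.43). Their summed intensity was 51715 to 72226 with Cre and 79519 to 84346 in the controls, without overlap, and Adgre1 differed by -0.57 ± 0.13. Of 5 mast cell markers tested 4 were lower at an unadjusted p under 0.05 and Kit was level (-0.01 ± 0.10), with a median of -0.87. Of these, Cma1 (mean 6.72 with Cre and 7.52 in the controls) reached the level set for testing through the controls. The summed intensity over the 7 mast cell markers on the array was 1162 to 1759 with Cre against 2266 to 2645. All 15 adipocyte markers were higher (5 with an unadjusted p under 0.05, median 0.13, summed intensity 91337 to 99920 against 79637 to 89324), and so were all 12 endothelial markers (7 with an unadjusted p under 0.05, median 0.34, 11034 to 12484 against 8253 to 10398). Of 14 AP markers 6 were lower and 8 higher (1 lower, Pi16 at -0.30 ± 0.07, and 0 higher with an unadjusted p under 0.05; 3 lower and 0 higher without overlap), with a median of 0.005 and a summed intensity of 23016 to 25407 against 22426 to 25068, and Pdgfra differed by -0.17 ± 0.08. Pi16 was 6.81, 6.70 and 6.73 with Cre and 7.07, 7.04 and 7.02 in the controls. It thus reached the level set for testing only through the controls, the group where it is high. No marker was listed at 0. Over all genes tested 13.8% were lower and 3.82% higher at an unadjusted p under 0.05. The part of these cells in the differences of the 10 genes was not tested.

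The macrophage mean was in the same order as Akr1b8 and Srxn1 in the PdgfraCre group, at 10.96 on array 2, 10.66 on array 1 and 10.47 on array 3. In the controls it was 11.21, 11.15 and 11.20 on arrays 4, 5 and 6. The 6 targets whose groups did not overlap each spanned 0.40 (Gclc) to 0.73 (Akr1b8) there. A mean of 24 genes can vary less than single genes, so these ranges are not alike. Of single macrophage markers, Clec4d was 9.46, 8.95 and 9.55 on arrays 4, 5 and 6, and Adgre1 was 11.92, 11.83 and 11.86. With the macrophage mean as a covariate the differences were -0.28 ± 0.34 for Akr1b8, 0.01 ± 0.33 for Srxn1, -0.32 ± 0.30 for Cbr3, -0.24 ± 0.31 for Gclm, -0.23 ± 0.25 for Txnrd1 and -0.45 ± 0.26 for Gclc. They were -0.05 ± 0.14 for Nfe2l2, 0.03 ± 0.14 for Keap1, -0.88 ± 0.52 for Nqo1 and 0.19 ± 1.15 for Slc7a11. Every interval then spanned 0, that of Hmox1 (-0.21 ± 0.35) included. The covariate itself follows the genotype, so it widened the errors, from a median SE of 0.10 to 0.17 over all genes tested, and its share and that of Cre in these values cannot be told apart with 6 arrays. Gclc, Nqo1 and Slc7a11 did not move toward 0, whereas Srxn1 and Akr1b8 moved most among the 10 genes.

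**Figure D3:**
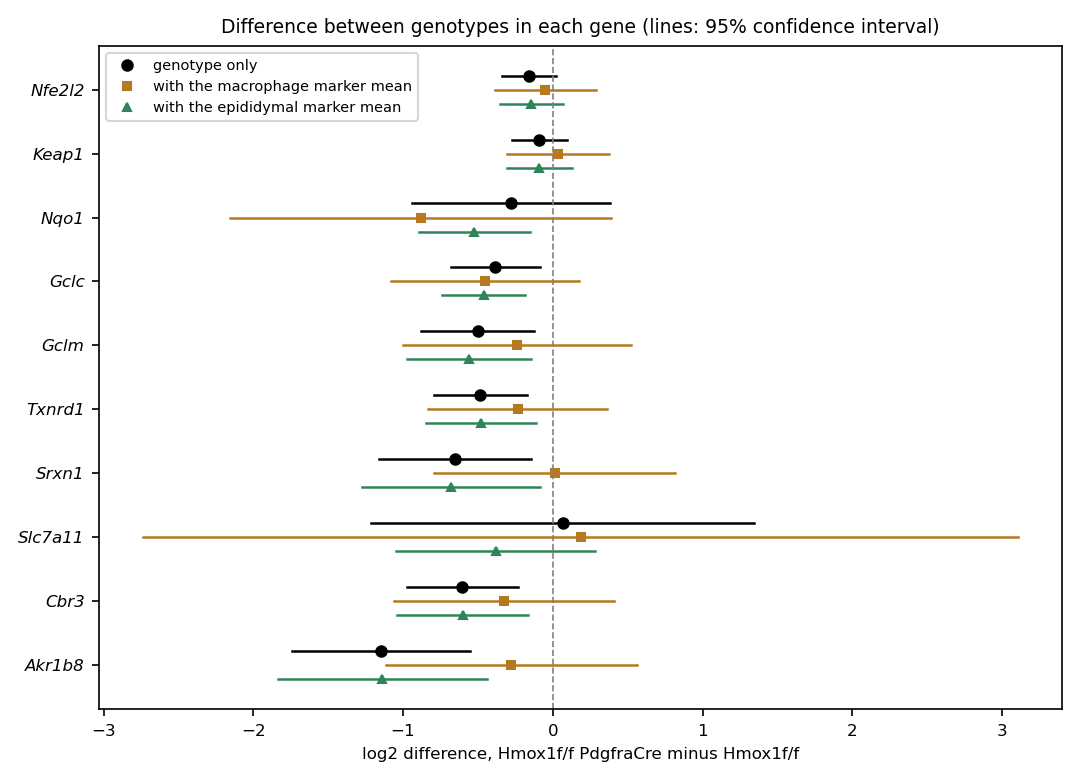
Log2 difference, Hmox1f/f PdgfraCre minus Hmox1f/f, of the 10 genes in 3 fits (genotype only, with the macrophage marker mean, with the epididymal marker mean), where points are estimates, horizontal lines are 95% confidence intervals and the dashed line is 0. With the macrophage mean every interval spans 0, and with the epididymal mean Nqo1 lies at -0.52 and Akr1b8 at -1.14.

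Some markers of another tissue were also high on the arrays where Nqo1 and Slc7a11 were highest. Perigonadal fat lies against the epididymis, and its gene Lcn5 was 12.21 on PdgfraCre 1 and between 5.39 and 5.86 elsewhere. The summed intensity of 9 epididymal markers was 13639, 429 and 1003 on PdgfraCre 1 to 3 and 792, 639 and 2157 on Hmox1f/f 4 to 6. On Hmox1f/f 6 only some of these markers were high, such as Gpx5 (10.33) and Lcn8 (8.50). Lcn5 (5.39), Spint4 (4.91), Spag11a (5.49) and Defb42 (6.49) had their lowest values of all arrays there. PdgfraCre 1 and Hmox1f/f 6, the arrays highest in that sum, were the highest pair for Nqo1 and Slc7a11, as for 3.07% of genes tested. With the mean of the epididymal markers as a covariate, a fit added after the data were seen, Nqo1 differed by -0.52 ± 0.15 (limma adjusted p = 0.373) and Slc7a11 by -0.38 ± 0.26. That mean was 9.23 on PdgfraCre 1 and 5.44 to 6.56 on the other arrays, so the fit rests largely on PdgfraCre 1. Without that array Nqo1 was at -0.57 and Slc7a11 at -0.53. The other differences changed little in the fit with the epididymal mean, with Gclc at -0.46 ± 0.11, Gclm at -0.56 ± 0.17, Cbr3 at -0.60 ± 0.18 and Akr1b8 at -1.14 ± 0.29. The part of epididymal RNA in the levels of Nqo1 and Slc7a11 was not tested.

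Further genes of the pathway were taken from lists of its regulators and targets. Among 16 regulators of Nrf2 tested 11 were lower and 5 higher with Cre, with a median of -0.12, against -0.03 and 57.4% lower over all genes tested. The groups did not overlap in 7 that were lower and 0 that were higher, against 21.2% and 5.82% of genes tested. At an unadjusted p under 0.05 there were 5 lower and 0 higher, against 13.8% and 3.82% of genes tested. The 5 were Dpp3 (-0.31 ± 0.09), a peptidase that binds Keap1, Prkcd (-0.39 ± 0.13), a protein kinase C, Sqstm1 (-0.24 ± 0.09), the autophagy receptor p62 that sequesters Keap1, Rbx1 (-0.18 ± 0.07), the ring subunit of the Cul3 ligase, and the small Maf gene Mafk (-0.23 ± 0.10). Sqstm1 was 11.68, 11.84 and 11.63 with Cre and 11.95, 11.89 and 12.03 in the controls. The groups did not overlap, with PdgfraCre 2 just below Hmox1f/f 5. Sqstm1 is also a target of Nrf2.

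Of 52 other known targets, with the deleted gene Hmox1 left out, 46 were on the array and 42 were tested. Lower with Cre were 29 and higher 13, with a median of -0.13, against 57.4% lower and a median of -0.03 over all genes tested. At an unadjusted p under 0.05 there were 15 lower and 1 higher, against 13.8% and 3.82% of genes tested. The groups did not overlap in 21 that were lower and in 4 that were higher, against 21.2% and 5.82% of genes tested. None passed the adjusted threshold in limma.

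Heme and iron handling was a list of 8 genes that includes Hmox1, the gene targeted by the deletion. Its 7 other genes were all lower (3 with an unadjusted p under 0.05, median -0.18). Over all genes tested 57.4% were lower, 13.8% of them all at that level, with a median of -0.03. Slc40a1, the iron exporter ferroportin, was 7.32, 7.24 and 7.23 with Cre and 8.32, 7.85 and 8.87 in the controls, a difference of -1.08 ± 0.23. Its PdgfraCre arrays were nearly level, while its controls were in the order of the 8 targets. The biliverdin reductase gene Blvrb differed by -0.70 ± 0.21 and the ferritin light chain gene Ftl1 by -0.36 ± 0.11. Of 3 further thioredoxin genes, the peroxiredoxin gene Prdx1, whose product is a substrate of sulfiredoxin, was 11.78, 12.20 and 11.63 with Cre and 12.35, 12.39 and 12.63 in the controls. It differed by -0.59 ± 0.16 (limma adjusted p = 0.20) without overlap, thioredoxin itself (Txn1) by -0.13 ± 0.07, and Sesn2, a sestrin, by 0.20 ± 0.09.

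Among 5 genes of NADPH supply 4 were lower and 1 higher. Taldo1 (-0.38 ± 0.10) and Pgd (-0.26 ± 0.10) of the pentose phosphate pathway had an unadjusted p under 0.05. The transketolase gene Tkt was at -0.11 ± 0.07, without overlap, and the malic enzyme gene Me1 was at 0.09 ± 0.11. Of 11 detoxification genes 9 were lower and 2 higher, with 5 and 1 at an unadjusted p under 0.05. Over all genes tested 57.4% were lower, and 13.8% were lower and 3.82% higher at that level. The prostaglandin reductase gene Ptgr1 was 8.27, 8.49 and 8.41 with Cre and 9.07, 8.86 and 9.61 in the controls. The groups were well apart, and the controls had the same order as the 8 targets. It differed by -0.79 ± 0.18 (limma adjusted p = 0.20). The aldo-keto reductase gene Akr1a1 (-0.40 ± 0.12) and the transporter gene Abcc1 (-0.28 ± 0.10) were also lower, and the aldehyde oxidase gene Aox1 was higher (0.32 ± 0.13).

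The other glutathione genes did not share 1 direction. Of 12 tested 5 were lower and 7 higher, with a median of 0.07, against 57.4% lower and a median of -0.03 over all genes tested. Glutaredoxin (Glrx, -0.56 ± 0.14), glutathione synthetase (Gss, -0.28 ± 0.10) and glutathione reductase (Gsr, -0.38 ± 0.16) were lower at an unadjusted p under 0.05, and the glutathione S-transferase gene Gstm2 was at 0.21 ± 0.11. Among 4 other targets the esterase gene Esd was lower by -0.51 ± 0.12 (limma adjusted p = 0.20), Osgin1 was at -0.20 ± 0.17, catalase (Cat) at 0.06 ± 0.07 and Trim16 at 0.01 ± 0.10. Slc7a11 is also a target of Atf4, the factor of the amino acid response. Of 12 genes of the Atf4 response tested, 7 were lower and 5 higher with a median of -0.04. Only 1 had an unadjusted p under 0.05, the serine synthesis gene Phgdh (0.32 ± 0.10), against 3.82% of genes tested that were higher at that level.

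**Figure D4:**
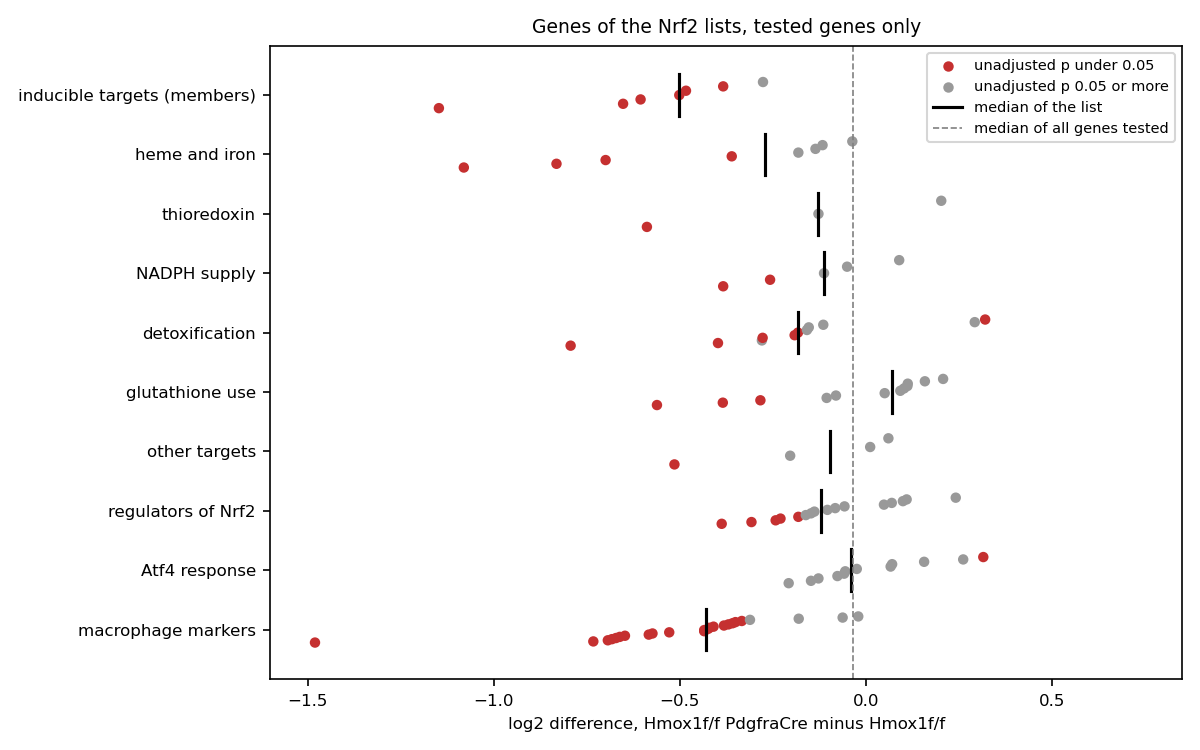
Log2 difference, Hmox1f/f PdgfraCre minus Hmox1f/f, of each tested gene of the lists of Nrf2 targets and regulators, of the Atf4 response and of macrophage markers (Hmox1 is among the heme and iron genes), with genes at an unadjusted p under 0.05 in red, list medians as black bars and the median of all genes tested (-0.03) as a dashed line. The 7 tested inducible targets and the macrophage markers lie left of the dashed line apart from 1 macrophage marker near it, and the other glutathione genes (labelled glutathione use) lie on both sides.

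The genes most like the regulators were found by Pearson correlation over the 6 arrays. For Nfe2l2 they were Prxl2c, Chic2 and Nudt9 (r = 0.993 each), and 193 named genes had an r over 0.95. For Keap1 they were Znhit1 (r = 0.999), Dda1 (0.993) and Nup50 (0.988), with 91 named genes over 0.95. With only 6 arrays such values are frequent, and they describe likeness of pattern only.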

How the data were processed

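Affymetrix mouse gene arrays were hybridised with biotin-labelled RNA (200 ng before amplification), 3 for each genotype. The deposited intensity values, on a linear scale, came from RMA in Affymetrix Expression Console 1.1 per the submitters' processing notes. RMA makes differences of weak probesets smaller than they are, and its quantile step would hide a shift common to most genes. A genome build was not given in the sources used here.

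Log2 was taken. Of 35556 probesets 21789 carried 1 symbol; the probeset with the highest mean was kept per gene (19938 genes), and the 11024 above 7 on at least 3 arrays were tested with limma 3.58.1 in R 4.3.3 (lmFit and eBayes, genotype only, two-sided, Benjamini-Hochberg). The median intensity per array was 106 to 115, and the few arrays limit the precision. In data simulated for 11024 genes, 21 of 50 genes shifted by 0.5 and 42 of 50 shifted by 1 were recovered. There were 7 false calls among the genes left unshifted. The noise was drawn for each gene on its own, without variation shared between genes such as arrays that stand apart. Recovery in the real data can therefore be lower.

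The 10 genes and 18 further lists (204 symbols, 182 found, 159 tested) were chosen with earlier results of these data known. Named were the 10 genes, Hmox1, Pdgfra, up to 4 genes of smallest p per list, all near paralogs, and defining markers. Mafk was added as the last of 5 regulators, and Clec4d and further epididymal markers for their levels on single arrays. Also run were fits without a filter, with a filter at 6, with the filter of the methods (given there for another array screen), with further quantile normalization or median centring, with arrayWeights, with trend and robust moderation, with all probesets of a gene averaged, with the macrophage mean as a covariate, and with arrays left out. Plots used Python 3.11.15 and matplotlib 3.10.9.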

Additional observations from a re-analysis of the deposited data

How the results depend on the processing

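No paired analysis was possible because the replicate numbers of the groups (1 to 3 and 4 to 6) are not shared. In limma 0 genes passed an adjusted p of 0.05 under every setting run, with a smallest adjusted p of 0.0871 (without Hmox1f/f PdgfraCre 2), against 1944 genes at an unadjusted p under 0.05, which became 490 with the macrophage mean as a covariate, 584 without PdgfraCre 1 and Hmox1f/f 6 together, 1070 without Hmox1f/f 6 and 651 with the filter of the methods, which keeps 3675 genes and leaves out Nfe2l2, Keap1 and Slc7a11.

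The direction held in all settings for Nfe2l2, Gclc, Gclm, Txnrd1, Cbr3, Akr1b8 and Hmox1. With the macrophage mean as a covariate Keap1 turned to 0.032 and Srxn1 to 0.013. Leaving out 1 array at a time gave -0.20 to -0.12 for Nfe2l2, -0.12 to -0.04 for Keap1, -0.57 to 0.01 for Nqo1, -0.48 to -0.28 for Gclc, -0.62 to -0.33 for Gclm, -0.60 to -0.36 for Txnrd1, -0.80 to -0.46 for Srxn1, -0.53 to 0.43 for Slc7a11, -0.73 to -0.43 for Cbr3, -1.37 to -0.93 for Akr1b8 and -0.99 to -0.64 for Hmox1. Slc7a11 also turned to -0.28 without PdgfraCre 1 and Hmox1f/f 6 together and to -0.38 with the epididymal mean as a covariate. The cause was not tested. The epididymal covariate and moderation over all genes before the filter (1406 lower and 334 higher at an unadjusted p under 0.05) were chosen after seeing the data. Low signal limits Nqo1, Cbr3 and Slc7a11, which lie near the level set for testing.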

Other observations

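Near paralogs of the 10 genes were also measured, and their probes may take up some RNA of their relatives, which was not analysed here. Akr1b10, an aldo-keto reductase close to Akr1b8, was 9.89, 10.05 and 9.91 with Cre (arrays 1 to 3) and 10.32, 10.42 and 10.12 in the Hmox1f/f controls (arrays 4 to 6). The groups did not overlap, and the difference was -0.34 ± 0.10 (limma adjusted p = 0.209). Its highest control was array 5 and its lowest array 6, which is not the order of Akr1b8. Cbr1, the relative of Cbr3, differed by -0.18 ± 0.08 (limma adjusted p = 0.277). The mitochondrial thioredoxin reductase gene Txnrd2 was at -0.01 ± 0.08 and Txnrd3 at -0.35 ± 0.26, with array 6 at 8.77 and the other arrays between 7.64 and 7.96. Nqo2 was at 0.08 ± 0.08. The CNC factors related to Nrf2 were at 0.05 ± 0.07 (Nfe2l1) and 0.24 ± 0.18 (Nfe2l3), with overlapping groups in both. Nfe2, a further CNC factor, lay between 5.70 and 5.91 on all arrays and was not tested, and Akr1b3 and Akr1b7 were not analysed here.

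Of 34 other known targets with a promoter window, 9 (26.5%) held the core TGACNNNGC, against 17.0% of genes tested, and 5 (14.7%) held TGANTCAGC, the motif added after the windows were read, against 1.34% of genes tested. The latter were Prdx1, Osgin1, Me1, Gstp1 and Pir.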
